A study of Mus musculus with 6 samples.

Results

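A set of 10 transcription factors of mesenchymal and other non-neural lineages, namely Tbx2, Tbx3, Tbx15, Tbx18, Twist1, Gata2, Gata6, Msx1, Msx2 and Prrx1, were followed in forebrain cells of control mice and of mice with a conditional deletion of the chromatin remodeler Ep400 in the oligodendrocyte lineage. The members were taken by symbol from the deposited table, where 10 of 48526 genes carry a listed symbol and all 10 of them are among the 20101 tested genes. They had been listed because several of them were lower and Msx2 was higher in the same comparison, so their values are given as a description and without a test of the group. Cells were sorted by YFP and Hoechst fluorescence from forebrain without meninges at postnatal day 6, and total RNA was sequenced on the Illumina HiSeq platform after a stranded mRNA preparation. The 3 ctrl samples carried CNP1::Cre, a Cre recombinase driven by an oligodendroglial promoter, and a conditional YFP reporter at Rosa26 (Rosa26stopflox-YFP). The 3 cko samples carried these alleles and in addition conditional Ep400, and all animals had a mixed 129SvJ/C57Bl/6J background. YFP marks each cell that had Cre activity or descends from one, so the sort depends on where this Cre was active.

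T-box, GATA, Twist and homeodomain proteins bind DNA and help to set the identity of many tissues. These families also hold factors of neural cells, so a member need not mark a cell outside the neural lineage. In and around the brain, members of these families are known, among other cells, from pericytes, smooth muscle and fibroblasts of vessels and meninges. They are also known from endothelium and blood. Oligodendrocyte precursor cells (OPCs), which the sort was meant to isolate, come from neuroepithelium and are defined by other factors such as Olig2 and Sox10.

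RefSeq promoter windows of GRCm38.p6, from 250 bases before to 50 bases after the annotated start, were found for 6 of the 10 members in 7 windows, with 2 windows for Gata2. Msx2 and Prrx1 are printed as the members with a positive fold change, Msx1 as the closest relative of Msx2, and Tbx18 as a member that fell. Capitals mark TAATTA, a core bound by homeodomain proteins, and CANNTG, the E-box bound by Twist1 and other basic helix-loop-helix proteins. The Msx2 window lies at chr13:53472731-53473030 on the minus strand, that of Prrx1 at chr1:163313601-163313900 on the minus strand, that of Msx1 at chr5:37824536-37824835 on the minus strand and that of Tbx18 at chr9:87731211-87731510 on the minus strand.
Msx2: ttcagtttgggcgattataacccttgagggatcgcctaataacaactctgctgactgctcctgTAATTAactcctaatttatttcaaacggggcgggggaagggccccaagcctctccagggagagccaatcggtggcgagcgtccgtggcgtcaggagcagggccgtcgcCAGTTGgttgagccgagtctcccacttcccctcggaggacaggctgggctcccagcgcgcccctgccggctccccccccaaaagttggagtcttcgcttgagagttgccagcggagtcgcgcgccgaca
Prrx1: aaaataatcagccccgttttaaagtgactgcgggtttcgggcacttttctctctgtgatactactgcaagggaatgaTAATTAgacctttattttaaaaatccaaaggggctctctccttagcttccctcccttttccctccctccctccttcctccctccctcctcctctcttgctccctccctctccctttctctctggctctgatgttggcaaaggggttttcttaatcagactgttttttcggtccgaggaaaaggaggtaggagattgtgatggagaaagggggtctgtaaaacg
Msx1: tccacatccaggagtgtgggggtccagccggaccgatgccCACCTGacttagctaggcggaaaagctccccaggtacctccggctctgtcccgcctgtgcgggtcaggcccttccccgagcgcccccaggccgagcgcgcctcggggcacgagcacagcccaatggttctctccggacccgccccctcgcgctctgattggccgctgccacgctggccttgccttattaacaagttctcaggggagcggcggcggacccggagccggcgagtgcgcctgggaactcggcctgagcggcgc
Tbx18: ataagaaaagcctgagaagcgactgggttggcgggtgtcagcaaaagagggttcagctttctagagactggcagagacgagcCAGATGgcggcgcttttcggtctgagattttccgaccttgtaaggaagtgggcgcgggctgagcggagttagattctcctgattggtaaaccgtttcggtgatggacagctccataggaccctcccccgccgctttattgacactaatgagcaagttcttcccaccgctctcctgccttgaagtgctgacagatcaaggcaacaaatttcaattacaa
Among the 7 windows TAATTA was found in 2, at -187 in Msx2 and at -173 in Prrx1. Positions are counted so that the first transcribed base of the RefSeq start is 1 and the base before it -1. For Msx2 the 2 annotations differ. Its GENCODE gene starts at 53473074 on the minus strand, so the whole Msx2 window, with its TAATTA, lies inside that gene and downstream of that start. It stands in 5.29% of 32851 mouse promoter windows of this length. In Prrx1 it overlaps a GATAA at -175. CANNTG was found in Msx2 at -79, in Msx1 at -210, in Tbx18 at -168 and in 1 Gata2 window at 18, and 72.3% of all windows hold it. Both patterns read alike on either strand. The other patterns searched, on both strands, were GATAA in 1 of the 7 windows (25.4% of all windows), AGGTGT in 1 (13.7%), CCAAT in 5 (37.4%) and TATAAA in 1 (13.6%). The patterns printed in capitals were chosen after the sequences were seen, and a match is a run of letters and no measured binding.

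Added up over all genes the deposited means come to 80407433 normalised reads, with scale factors of the 6 libraries between 0.967 and 1.122. Reads per library were solved from the deposited mean, fold change and standard error, and libraries are lettered a to c within a group. For Ep400 itself the authors' deposited table lists a mean of 12048 and a log2 difference of 0.01 ± 0.17 (SE), with an interval of -0.33 to 0.35 at the 95% level (adjusted p = 0.97). A count over the whole gene need not show the loss of floxed exons, so it checks neither the labels nor the direction, which rests on the name of the table. Among the markers of the labelled OPCs, 11 of 12 were tested, with deposited means of 352288 for the receptor gene Ptprz1, 19690.5 for Pdgfra and 24362.6 for the lineage factor gene Olig2. Markers of other cells were also abundant, with a deposited mean of 318172 for Slc1a3, the most abundant gene of the astrocyte list. The means were 129373 for the microglial receptor gene Csf1r, 85800.8 for the pericyte gene Rgs5 and 66734 for Igf2, a gene of meningeal and vascular fibroblasts.

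Of the 10 factors 5 fell in the libraries labelled cko, 1 rose and 4 did not pass the authors' test at an adjusted p under 0.05. Tbx2, Tbx3, Tbx18, Twist1 and Gata6 stood at 34.8% to 54.0% of their ctrl level, while Msx2 stood at 3.13 times its ctrl level. Over all 20101 tested genes 12.2% were called, 4.61% fell and 7.64% rose at the same threshold, and since the members were listed for this comparison nothing is read from the contrast. The median log2 fold change of the 10 was -0.78, beside 0.00 for all tested genes. In bulk RNA, fewer cells of a type and less RNA per cell cannot be told apart.

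**Figure D1:**
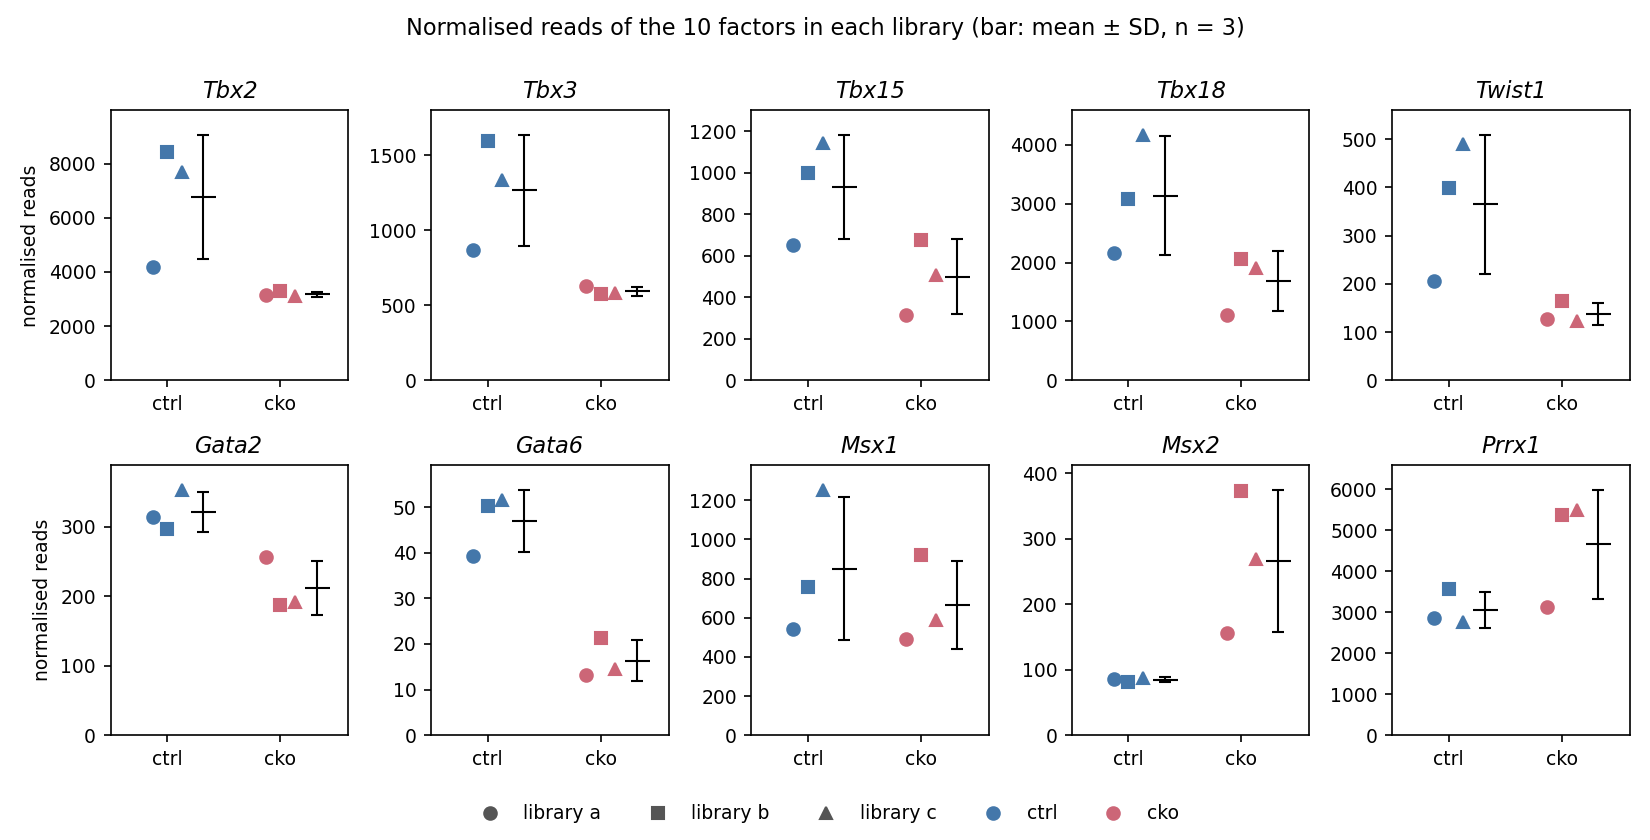
Normalised reads (vertical axes, each starting at 0) of the 10 factors in the 3 ctrl (blue) and 3 cko (red) libraries, with the symbol shape giving the library letter and the bar the mean ± SD (n = 3). The cko libraries lie below all ctrl libraries for Tbx2, Tbx3, Tbx18, Twist1, Gata2 and Gata6 and above them for Msx2, and the groups overlap for Tbx15, Msx1 and Prrx1.

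Tbx2 and Tbx3 are closely related T-box proteins that mainly repress transcription during heart, limb and gland development. Tbx2 (ENSMUSG00000000093, chr11:85832551-85841948, plus strand) had 4166, 8447 and 7709 normalised reads in ctrl libraries a, b and c and 3138, 3283 and 3121 in cko libraries a, b and c. The groups did not overlap, with ctrl library a closest to the cko libraries, which were nearly level. The ctrl mean was 6774 ± 2288 and the cko mean 3180 ± 89.0 (SD, n = 3). The log2 fold change according to the authors' deposited table was -0.99 ± 0.24 (SE, adjusted p = 0.0017).

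Tbx3 (ENSMUSG00000018604, chr5:119670669-119684724, plus strand) had 865, 1595 and 1334 normalised reads in ctrl libraries a, b and c, against 626, 572 and 582 in cko libraries a, b and c. Again ctrl library a was the lowest of its group and still above all cko libraries. Its fold change of -1.0 ± 0.23 (SE, log2, adjusted p = 0.00082) according to the authors' deposited table was close to that of Tbx2. The ratio of Tbx2 to Tbx3 was 5.30 ± 0.48 in ctrl and 5.37 ± 0.36 in cko (SD, n = 3), a difference smaller than the spread between libraries. Tbx3os1, an antisense gene that overlaps Tbx3, fell by 0.74 ± 0.22 according to the authors' deposited table, with adjusted p = 0.012. How reads of the overlap were counted, for one gene, the other or neither, is not known.

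Tbx15 and Tbx18 form another pair of relatives, known from skeletal and skin mesenchyme and, for Tbx18, from pericytes, smooth muscle and the epicardium. Tbx18 (ENSMUSG00000032419, chr9:87702800-87731260, minus strand) had 2164, 3080 and 4170 normalised reads in ctrl libraries a, b and c, against 1110, 2064 and 1906 in cko libraries a, b and c. The groups stayed apart, but ctrl library a exceeded cko library b by a margin smaller than the spread within either group. It fell by 0.78 ± 0.27 (SE, log2, adjusted p = 0.040) according to the authors' deposited table.

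Tbx15 (ENSMUSG00000027868, chr3:99240381-99354259, plus strand) had 654, 998 and 1144 normalised reads in ctrl libraries a, b and c, against 314, 678 and 508 in cko libraries a, b and c. Here cko library b lay above ctrl library a, so the groups overlapped. The value of -0.78 ± 0.29 from the authors' deposited table did not pass (adjusted p = 0.052), although it equals that of Tbx18 to the second decimal. The ratio of Tbx18 to Tbx15 was 3.35 ± 0.28 in ctrl and 3.44 ± 0.36 in cko (SD, n = 3), a difference within the spread.

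Twist1 (ENSMUSG00000035799, chr12:33957671-33959829, plus strand) encodes a basic helix-loop-helix factor of cranial mesenchyme that is also known for driving epithelial cells into a mesenchymal state. It had 207, 398 and 489 normalised reads in ctrl libraries a, b and c, against 127, 164 and 123 in cko libraries a, b and c. All cko libraries were lower than all ctrl libraries, and the ctrl libraries varied widely, with an SD of 39.5% of their mean. Twist1 fell by 1.18 ± 0.30 (SE, log2, adjusted p = 0.0025) according to the authors' deposited table.

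Gata2 and Gata6 are zinc finger factors, the former of blood progenitors, mast cells and endothelium, the latter of endoderm, heart and vascular smooth muscle. Gata6 (ENSMUSG00000005836, chr18:11052064-11085635, plus strand) was the scarcest member, with 39.2, 50.3 and 51.5 normalised reads across ctrl libraries a, b and c, against 13.2, 21.4 and 14.5 across cko libraries a, b and c. The groups did not overlap. It fell by 1.12 ± 0.37 (SE, log2, adjusted p = 0.026) according to the authors' deposited table.

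Gata2 (ENSMUSG00000015053, chr6:88193891-88207032, plus strand) had 314, 297 and 353 normalised reads in ctrl libraries a, b and c, against 256, 188 and 192 in cko libraries a, b and c. The groups did not overlap and the ctrl libraries were close together, yet the fold change of -0.55 ± 0.22 from the authors' deposited table did not pass (adjusted p = 0.075). The cko mean was 66.0% of the ctrl mean for Gata2 and 34.8% for Gata6. Whether these changes differ from each other was not tested.

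**Figure D2:**
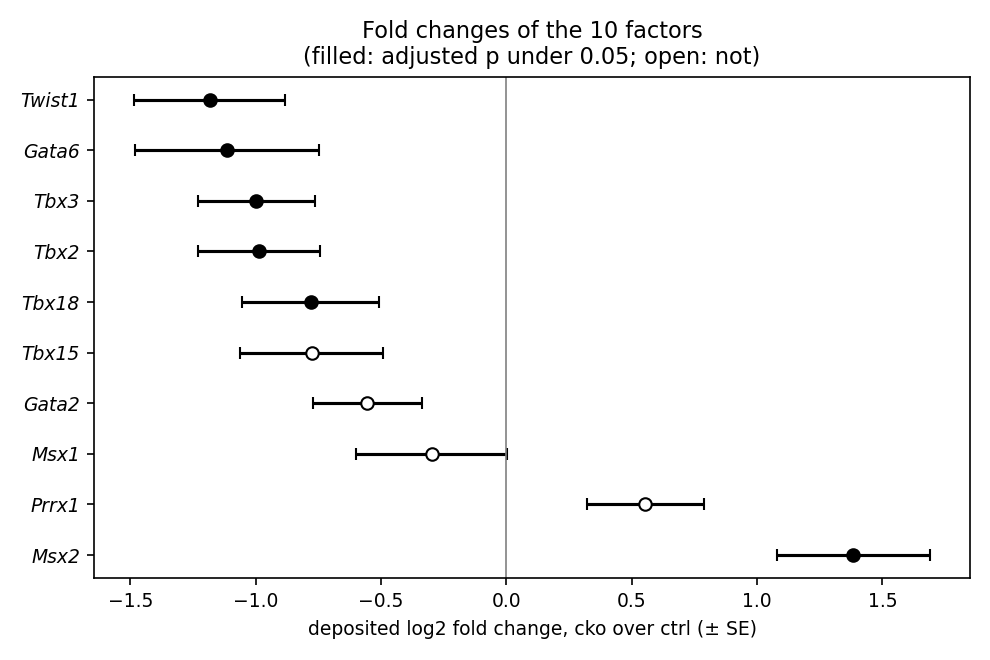
Log2 fold change (horizontal axis, cko over ctrl) of each of the 10 factors with its SE as given in the authors' deposited table, filled where the adjusted p is under 0.05. Twist1 stands lowest at -1.18 and Msx2 highest at 1.38, and Tbx15, Gata2, Msx1 and Prrx1 are open.

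Msx1 and Msx2 are homeodomain repressors that act downstream of BMP signals in skull, tooth and limb mesenchyme and in the dorsal midline of the neural tube. Msx2 (ENSMUSG00000021469, chr13:53466884-53473074, minus strand) had 86.4, 80.5 and 87.5 normalised reads in ctrl libraries a, b and c, against 156, 373 and 269 in cko libraries a, b and c. All cko libraries were above all ctrl libraries, and the cko libraries differed among themselves far more, with an SD of 40.9% of the mean against 4.43% in ctrl. Msx2 rose by 1.38 ± 0.31 (SE, log2, adjusted p = 0.00033) according to the authors' deposited table.

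Msx1 (ENSMUSG00000048450, chr5:37820485-37824583, minus strand) had 544, 756 and 1253 normalised reads in ctrl libraries a, b and c, against 493, 920 and 588 in cko libraries a, b and c. The groups overlapped, and the value of -0.30 ± 0.30 from the authors' deposited table did not pass (adjusted p = 0.58). Without ctrl library c its fold change turned to 0.03 in a refit of the authors' model. The ratio of Msx1 to Msx2 was 6.29, 9.39 and 14.3 in ctrl libraries a, b and c, against 3.16, 2.46 and 2.19 in cko libraries a, b and c, without overlap. Msx2 was listed for its rise and did not overlap by itself either, so the ratio is no separate result.

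Prrx1 (ENSMUSG00000026586, chr1:163245119-163313710, minus strand), a paired-type homeodomain factor of limb and craniofacial mesenchyme, had 2865, 3561 and 2761 normalised reads in ctrl libraries a, b and c, against 3129, 5373 and 5487 in cko libraries a, b and c. Cko library a lay within the ctrl range while cko libraries b and c were above it. The value of 0.55 ± 0.23 from the authors' deposited table did not pass (adjusted p = 0.10). Its relative Prrx2 stood at -0.28 ± 0.25 according to the authors' deposited table, with adjusted p = 0.52.

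For 6 members the table's reads put all ctrl libraries above all cko libraries, and for 1, Msx2, the reverse. Among 2712 other genes with solved reads and a mean of at least 40, 13.2% had all ctrl libraries above and 17.8% all cko libraries above. Gata6 lies under that mean. Above a mean of 200 only every 40th gene was taken, so scarcer genes are over-represented. All members but Gata6 and Msx2 have means over 200. Within the ctrl group library a was the lowest for 7 of the 10 members, and within the cko group library a was the lowest for 6. Library b was the highest cko library for 7 members, among them both Msx genes.

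Each library was left out in turn in a refit of the authors' model at the dispersion, scale factors and prior solved from the table, and a value was called where its p was at or under 0.00612, the largest p called in the table. Tbx2, Tbx3 and Twist1 remained lower and Msx2 higher without any of the 6 libraries, with log2 fold changes of -1.19 to -0.80, -1.17 to -0.80, -1.38 to -0.92 and 1.07 to 1.56. Tbx18 was no longer called without ctrl library b (-0.77), ctrl library c (-0.54) or cko library a (-0.56). Gata6 was no longer called without ctrl library b (-1.02), ctrl library c (-1.01), cko library a (-0.95) or cko library c (-0.98). Conversely Tbx15 was called without ctrl library a (-0.92) or cko library b (-0.98), and Gata2 (-0.69) and Prrx1 (0.74) were called without cko library a.

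By limma on log2 of normalised reads plus 1 over 6734 genes, Tbx2 and Tbx3 were called lower (adjusted p = 0.0499 and 0.0492), beside 0.416% of these genes. Here too only every 40th gene above a mean of 200 was taken beside the members, so the shares are weighted to genes scarcer than most members. No member was called higher, beside 1.2% of these genes, with an adjusted p of 0.051 for Msx2, and 2 members were higher and 7 lower at an unadjusted p under 0.05, beside 12.3% and 6.07% of these genes. The calls of Tbx2 and Tbx3 by limma were lost without ctrl library b or c, without any 1 of the 3 cko libraries, and with a pseudocount of 0.5 (smallest adjusted p of a member 0.066). When the deposited Wald statistics were set against a null as wide as the middle of their own distribution, 1.68 times the assumed width, none of the 6 calls remained, with adjusted p from 0.39 for Msx2 to 0.81 for Tbx18.

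**Figure D3:**
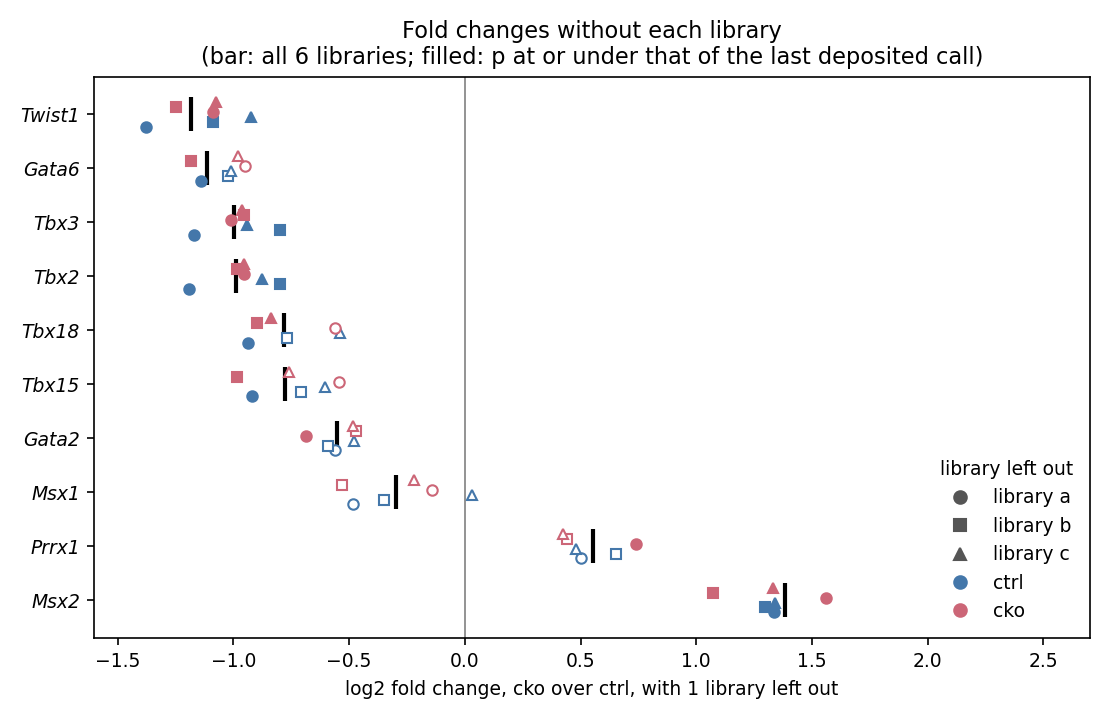
Log2 fold change (horizontal axis, cko over ctrl) of each factor in refits that leave out 1 library, coloured by the group and shaped by the letter of the library left out, with a bar for all 6 libraries and filled symbols where the p was at or under that of the last deposited call. Tbx2, Tbx3, Twist1 and Msx2 are filled throughout, and Msx1 crosses 0 without ctrl library c.

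Levels per kilobase of exon, the scale on which genes can be compared, ranked the members in ctrl from Tbx2 at 1868 ± 631 normalised reads per kilobase to Gata6 at 7.22 ± 1.04 (SD, n = 3). Tbx18 came next to Tbx2 at 665 ± 213. Prrx1, Msx1, Tbx15, Twist1 and Tbx3 followed at 277 ± 39.3, 275 ± 118, 249 ± 67.1, 224 ± 88.5 and 191 ± 55.8, and neighbours among these 5 overlapped. Gata2 at 59.5 ± 5.35 and Msx2 at 25.9 ± 1.15 lay apart from their neighbours. In cko, Msx2 reached 81.1 ± 33.2 normalised reads per kilobase, beside 84.9 ± 13.9 for Twist1 and 89.6 ± 4.31 for Tbx3.

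The other T-box genes showed no call. Of 13 listed, 10 were tested and none passed, with a median log2 fold change of 0.04. The most abundant were Mga, a repressor with a T-box, at 0.22 ± 0.13, and Eomes, a factor of neuronal progenitors, at 0.07 ± 0.42 according to the authors' deposited table, with adjusted p = 0.28 and 0.94. A value that did not pass is not shown to be unchanged, and Tbx15 at -0.78 did not pass either.

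Of 7 tested Gata relatives and cofactors 1 rose and 2 fell, with a median of -0.35. Zfpm2, a GATA cofactor, rose by 0.88 ± 0.22, while its relative Zfpm1 fell by 0.86 ± 0.31 and Lyl1, a blood and endothelial factor, by 0.77 ± 0.20 according to the authors' deposited table, with adjusted p = 0.0018, 0.047 and 0.0029. The blood and endothelial factors Lmo2 and Tal1 stood at -0.18 ± 0.17 and -0.36 ± 0.19 according to the authors' deposited table, with adjusted p = 0.54 and 0.22. Within the cko group Zfpm2 was lowest in library a, as were 6 of the 10 members, among them members that fell. It had 1748, 2624 and 2732 normalised reads in cko libraries a, b and c. In ctrl libraries a, b and c it had 1301, 1355 and 1006.

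Of 11 tested Twist relatives, E proteins and factors of the epithelial to mesenchymal transition 3 fell and none rose, with a median of -0.18. Snai1, a repressor of epithelial genes, fell by 1.11 ± 0.26, Twist2 by 1.17 ± 0.40 and Tcf21, a factor of fibroblast precursors, by 1.19 ± 0.41 according to the authors' deposited table, with adjusted p = 0.00092, 0.031 and 0.036. Twist2 was scarce like Gata6, with 28.5, 76.5 and 89.6 normalised reads across ctrl, against 11.2, 24.5 and 20.7 across cko. The abundant E protein gene Tcf4 and Zeb1 stood at 0.16 ± 0.20 and 0.37 ± 0.20 according to the authors' deposited table, short of the threshold (adjusted p = 0.67 and 0.24).

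Among other mesenchymal factors the calls were all downward. Of 15 tested homeobox genes 4 fell and none rose (median -0.66), and of 16 tested forkhead, Zic and other factors 8 fell and none rose (median -0.61). The homeobox genes that fell included Six2 (-1.23 ± 0.37), Lmx1b (-1.13 ± 0.38) and Alx4 (-0.77 ± 0.27) according to the authors' deposited table, with adjusted p = 0.014, 0.031 and 0.039. Foxd1, Foxc1, Foxf1 and Foxf2, forkhead factors of pericytes and meninges among other tissues, fell by 1.11 ± 0.24, 1.03 ± 0.23, 0.99 ± 0.26 and 0.70 ± 0.20 according to the authors' deposited table, with adjusted p = 0.00023, 0.00046, 0.0032 and 0.010. Heyl, Nr2f2 and Dlx5 were abundant and did not pass at -0.61 ± 0.25, 0.21 ± 0.23 and 0.04 ± 0.41 according to the authors' deposited table, with adjusted p = 0.084, 0.63 and 0.97.

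BMP signals induce Msx genes in many tissues, and of 24 tested genes of this pathway 4 rose and 2 fell, with a median of 0.39. The receptor genes Bmpr1b and Bmpr1a rose by 1.24 ± 0.32 and 0.97 ± 0.27, and Nog, which encodes the BMP antagonist noggin, by 0.95 ± 0.25 according to the authors' deposited table, with adjusted p = 0.0025, 0.0061 and 0.0044. The ligand gene Bmp5 fell by 1.04 ± 0.26 according to the authors' deposited table, with adjusted p = 0.0016. Smad5 and Id3, a transducer and a target of the pathway, stood at 0.47 ± 0.18 and 0.40 ± 0.19 according to the authors' deposited table, short of the threshold (adjusted p = 0.072 and 0.15). The 4 that rose also included the target gene Id2, and the 2 that fell also included the ligand gene Bmp6. The ligand gene Bmp4, with a deposited mean of 7185, had no deposited p and is not among the 24, at -0.88 ± 0.42. Of the other ligand genes Bmp2 stood at -0.88 ± 0.33 and Bmp7 at 0.64 ± 0.27 according to the authors' deposited table, with adjusted p = 0.055 and 0.091. These 3 were named after their values were seen. The part of BMP signals in the Msx2 values was not tested.

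**Figure D4:**
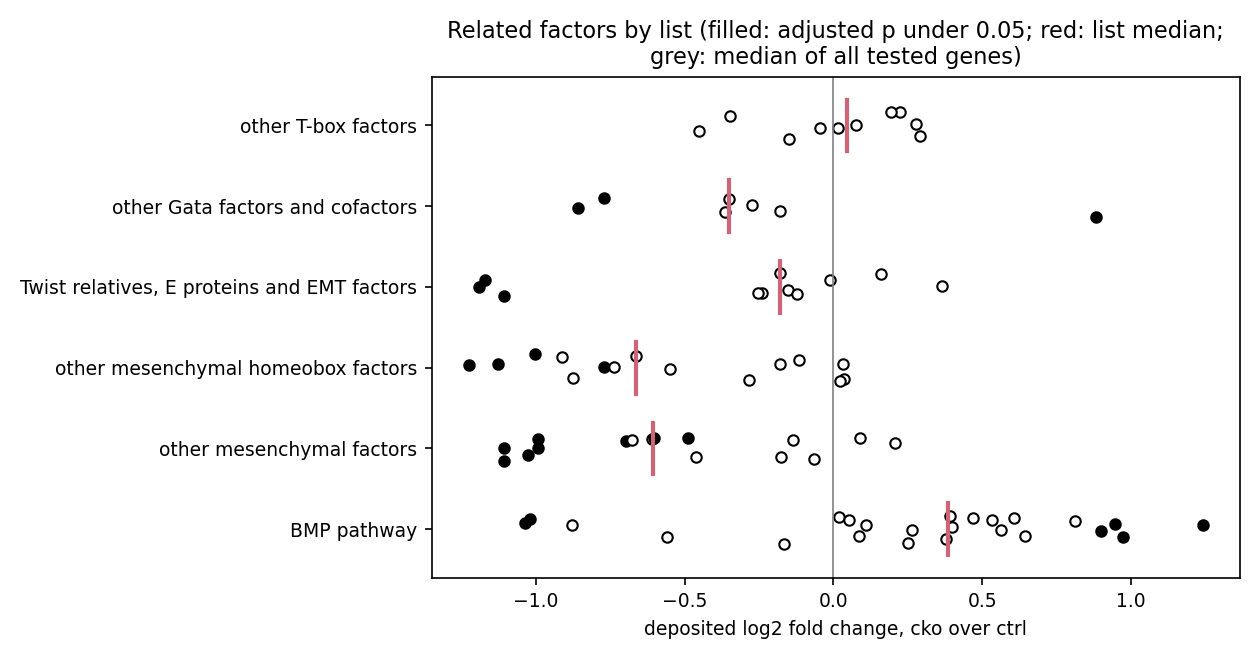
Log2 fold change (horizontal axis, cko over ctrl, authors' deposited table) of each tested gene in 6 lists of related factors, filled where the adjusted p is under 0.05, with the list median in red and the median of all tested genes in grey. The medians of the mesenchymal lists lie at -0.66 and -0.61, that of the BMP pathway at 0.39 and that of the other T-box factors at 0.04.

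Calls among markers of mural cells and fibroblasts were all downward, as were those in the endothelial, ependymal and microglial lists given below. Of 15 mural markers 10 fell and none rose (median -0.82), and of 15 fibroblast markers 7 fell and none rose (median -0.78). Tagln, Cnn1 and Acta2, contractile genes of smooth muscle, fell by 1.5 ± 0.27, 2.04 ± 0.37 and 1.43 ± 0.27 according to the authors' deposited table, with adjusted p = 4.6e-06, 4.7e-06 and 1.8e-05. The matrix genes Mgp and Col1a2 fell by 0.94 ± 0.22 and 0.98 ± 0.31 according to the authors' deposited table, with adjusted p = 0.00088 and 0.019, as did Igf2 by 0.96 ± 0.30. None of the markers in either list was at 0, and the lists share Cspg4 and Pdgfra with the OPC list.

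The summed normalised reads of the 7 mural markers with solved reads ran from 20280 to 40068 in ctrl and from 11753 to 14800 in cko, a cko mean of 43.9% of ctrl. All 7 were among the markers that fell, and the 8 not summed include the 5 that did not pass, so the sum does not stand for the whole list. Of these the most abundant were Rgs5 at -0.68 ± 0.25, Pdgfrb at -0.31 ± 0.22 and Notch3 at 0.18 ± 0.24 according to the authors' deposited table, the last 2 named after their values were seen. The sums of 7 fibroblast markers, 3 of which fell, ran from 15330 to 24795 in ctrl and from 10503 to 13986 in cko, or 62.7%. The part of these cell types in the values of the members was not tested.

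Endothelial markers showed 2 falls among 14 (median -0.30), and their sums ran from 26647 to 40567 in ctrl and from 17328 to 30334 in cko for 11 markers. Esam and Eng fell by 0.64 ± 0.21 and 0.58 ± 0.20 according to the authors' deposited table, with adjusted p = 0.029 and 0.030, while Slc2a1 stood at 0.42 ± 0.20 (adjusted p = 0.16). Of 6 tested mast cell markers none passed (median -0.43), and Kit, the most abundant, stood at -0.52 ± 0.23 according to the authors' deposited table, with adjusted p = 0.11. The mast cell receptor genes Fcer1a and Ms4a2 were near 0, with deposited means of 0.297 and 0.17. The mast cell sums over 6 markers ran from 3120 to 4603 in ctrl and from 2120 to 3322 in cko. Most of each sum came from Kit and Hdc, with deposited means of 2118 and 707, so it does not stand for the whole list. The other summed markers Cpa3, Mcpt4, Cma1 and Tpsb2 stood at -0.01 ± 0.36, -0.14 ± 0.36, -0.33 ± 0.41 and -0.56 ± 0.41 according to the authors' deposited table. Hdc and these markers were named after their values were seen. The part of endothelial and mast cells in the Gata2 values was not tested.

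The choroid plexus epithelium list stood apart in direction from the vessel lists, with 9 of 11 markers above 0, none called and a median of 0.60. The most abundant, Ttr, which encodes transthyretin, stood at 0.92 ± 0.41 according to the authors' deposited table, with adjusted p = 0.13. Enpp2, with a deposited mean of 15082, went the other way at -0.41 ± 0.35 according to the authors' deposited table, with adjusted p = 0.49. The summed normalised reads of 9 markers were 2114, 1949 and 3450 in ctrl libraries a, b and c. In cko libraries a, b and c they were 2120, 6921 and 4761. The sum leaves out the abundant Ttr and Enpp2, so it does not stand for the whole list. Msx2 had the same order of cko libraries, a below c below b, and so had Tbx15, Tbx18, Gata6 and Msx1, so the order is not particular to Msx2. Cko library a was at 184% of the ctrl mean for Msx2 and at 84.6% for the choroid plexus sum. The part of choroid plexus cells in the Msx2 values was not tested.

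Other cell types differed too. Of 12 astrocyte markers 9 rose (median 1.05), among them Agt, Fgfr3 and Aqp4, while 5 of 12 microglial and macrophage markers (median -0.48) and 6 of 10 ependymal markers (median -0.82) fell, none of these 3 lists having calls the other way. Of 11 tested OPC markers 2 rose and 2 fell (median -0.41), of 12 neuron markers 3 rose (median 0.21), and of 5 tested red blood cell markers 4 rose (median 0.98).

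**Figure D5:**
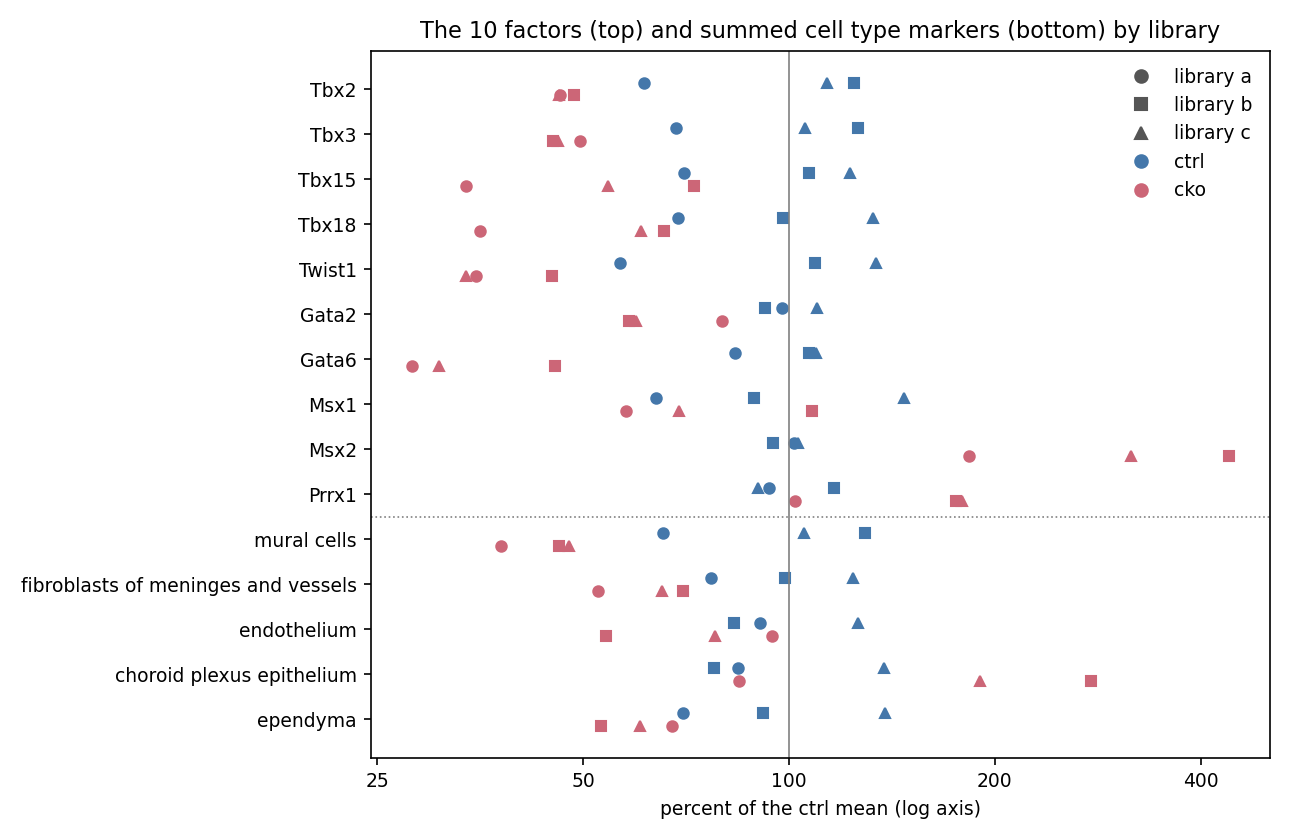
Normalised reads of the 10 factors (top) and summed normalised reads of 5 cell type marker lists (bottom) in each library as percent of the ctrl mean (horizontal log axis), with ctrl libraries in blue, cko libraries in red and the symbol shape giving the library letter. The sums hold only markers with solved reads. Those of 7 of 15 mural markers, all called lower, lie between 37.9% and 47.7% of the ctrl mean in cko. Choroid plexus sums, without the abundant Ttr and Enpp2, lie between 84.6% and 276%.

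Among 6777 genes with solved reads, those most like each member over the 6 libraries, by Pearson's r of log2 normalised reads, were listed as a description. Above a mean of 200 only every 40th gene, the members and the genes of the lists were compared, and none above 5000. Most genes as abundant as Tbx2, Tbx18 or Prrx1 were thus left out, while Bmp6 and Pifo are on the lists. They were Rbp7 and Gpr20 for Tbx2, Msc and Col24a1 for Tbx15, Bmp6 and Gbp10 for Tbx18, Penk and Myocd for Twist1, and Hsf4 and Pifo for Gata2. For Msx2 they were Gm42614 and Defb11, for Msx1 Lyg2 and Gm45371, for Prrx1 Mfsd4a and Nup62cl, for Gata6 Gm15610 and Olfr558, and for Tbx3 Cbln4 and Rps6-ps4, the last a pseudogene whose reads may belong to a near-identical copy. All r lay between 0.984 and 0.999, over libraries that share the group difference and their scale factors.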

How the data were processed

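The 10 members and all gene lists were chosen with earlier results of these data known. RNA of sorted mouse forebrain cells was sequenced from 3 ctrl and 3 cko samples, called biological replicates by the labels, so p-values measure the spread between these samples. The submitters' processing notes name, in no order, the build mm10 and the tools STAR 2.5.1, HTSeq and DESeq2, the last used by the authors for the comparison. The library kit was stranded, per the labels' protocols, but the sources used here do not give the strand setting of the counting. It is therefore not known how reads were counted where a gene and its antisense partner overlap. Identifiers are those of Ensembl release 85, per the file headers, and 0 columns of the deposited table hold values of single samples. For each gene the authors gave a mean normalised signal over the 6 libraries, a moderated log2 fold change with its log2 standard error, a Wald score, a p-value and a Benjamini-Hochberg adjusted p-value. The direction, cko over ctrl, comes from the name of the deposited table.

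Reads per library were solved from the deposited values. A deposited mean is a sum of whole reads, each multiplied by the worth of 1 read in its library, and genes with 1 read in all give the 6 worths. Of 4044 genes with a mean of 6.1 to 40, all 4044 were met by exactly 1 set of reads, and 4040 of these also gave the deposited fold change and standard error. None of 300 shifted means was met by any set. For 2958 more abundant genes, up to a mean of 5000, the mean, the fold change and the standard error were used together, which left exactly 1 set for 2811 and none for 147. All 10 members were solved. Genes read in only 1 library carry a deposited fold change whose sign gives that library's group in the authors' comparison. Letters a, b and c run from the highest to the lowest scale factor of a group. Libraries cannot be tied to named samples, and a letter pairs nothing across groups. Normalised reads are solved reads divided by the scale factor, and a level per kilobase divides them by the exon length in GENCODE M21 (GRCm38, the mm10 assembly), which held 48058 of the identifiers.

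Calls are the authors' own, at an adjusted p under 0.05. Had the table held counts, a count model would have been the main test. A count model planned for the solved reads was not run. As alternatives, the authors' model was refitted to the solved reads with each library left out (own code, numpy 2.4.6), and limma 3.58.1 in R 4.3.3 was run on log2 of normalised reads plus 1 for 6734 solved genes, which were all solved genes with a mean up to 200, every 40th above, and the members. The solving step and limma were tested on simulated data. Beside the members and Ep400, the text names up to 4 passing genes with the smallest adjusted p and up to 2 genes with a mean over 1000 that did not pass in each pathway list, up to 3 passing markers and the most abundant one in each cell type list, and relatives of the members. Not every gene that this rule names is reported here. No set test was run.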

Additional observations from a re-analysis of the deposited data

How the results depend on the processing

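Of the 927 lower and 1535 higher genes in the authors' deposited table, 369 and 828 passed at an adjusted p of 0.01, and 16 and 58 passed against the wider null. Among the members, 3 lower (Tbx2, Tbx3, Twist1) passed at 0.01, and 0 lower and 0 higher against the wider null. The share of higher genes among calls was 62.3% as deposited, 59.7% to 69.2% under the other settings of the deposited statistics and 78.4% against the wider null. Filtering, recentring and the removal of length and GC trends left 4 to 6 members lower and Msx2 higher; Tbx18 did not pass with no filter (adjusted p = 0.057), and Tbx15 passed when genes under a mean of 100 were dropped and without length and GC trends. Leaving out 1 library gave 3 to 6 lower and 1 to 2 higher members in the refit, with the dispersion kept from all 6 libraries, and Msx1 ran from -0.53 without cko library b to 0.031 without ctrl library c, which reversed its sign. Limma called 0 to 3 lower and 0 to 2 higher members when 1 library was left out (4 to 24 lower and 9 to 112 higher over its 6734 genes), with 0 lower in 5 of the 6 runs. It called 0 lower with a pseudocount of 0.5 (17 lower and 51 higher over all), and 1 higher (Msx2) with libraries scaled to the same total or with genes of a mean of at least 20 or 40. The use of limma, its other settings and the refits were chosen after seeing the data, while leaving out each library in the solved reads had been planned with a count tool. The cause of these differences was not tested. The planned runs of count tools on the solved reads, with their filter and scaling alternatives, were not run, although all 10 members had been solved. Limma and the refits took their place, which departs from the plan. Leaving out a replicate in the count over all genes was not run either. No paired analysis was possible because the table holds no values per named sample, so the shared replicate numbers of the labels cannot be applied to the lettered libraries. Groups of 3 are too small for a search for outlying samples.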
